A study of Mus musculus with 9 samples.

Results

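The channels, transporters and receptors with which bile duct cells secrete fluid and sense bile acids were followed across 9 RNA sequencing libraries of mouse bile duct organoids. The set holds 10 genes of the 32137 in the deposited files, taken by gene name: the chloride channels Cftr and Ano1, the anion exchanger Slc4a2, the water channel Aqp1, the secretin receptor Sctr, the bile acid carrier Slc10a2, the bile acid receptor Gpbar1, the glucose carrier Slc5a1 and the polycystins Pkd1 and Pkd2. All 10 were present in the files, and 8 passed the filter on low counts that left 17011 genes for testing. Sctr and Gpbar1 did not pass it.

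The organoids, hollow epithelial cultures grown from bile duct, came from 1 male animal of mixed background that was heterozygous for Axin2CreERT2 and for R26-LSL-tdTom. Axin2CreERT2 is a tamoxifen-activated Cre recombinase driven by Axin2, a target gene of Wnt signalling, and R26-LSL-tdTom makes the red protein tdTomato in cells where Cre has acted. Every culture was expanded for 2 to 4 days, differentiated for 11 days and given dexamethasone at 3 uM and 4-hydroxytamoxifen at 500 nM in its last 24 h, so the controls carried these agents and alleles too. The 3 groups of 3 libraries were tdTomato-negative cells from organoids without Rspo1 (untreated), tdTomato-negative cells from organoids given 100 ng/ml Rspo1 (Rspo1-negative) and tdTomato-positive cells from the latter (Rspo1-positive). Rspo1, or R-spondin 1, is a secreted protein that raises Wnt signalling. Positive cells without Rspo1 are not among the groups. Each group was sampled once at passage 5, passage 6 and passage 10 of the line. The p-values of the group comparisons thus measure the spread between cultures of a single line, and no p-value here measures the spread between animals.

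Bile duct cells, the cholangiocytes, dilute and alkalinise bile. Secretin binds its receptor and raises cyclic AMP, which opens the chloride channel CFTR. Chloride that leaves through CFTR, or through the calcium-gated channel anoctamin 1, is exchanged for bicarbonate by AE2, the product of Slc4a2, and water follows through aquaporin 1. Bile acids are taken up from the duct lumen by the sodium-coupled carrier encoded by Slc10a2 and are sensed at the membrane by the receptor encoded by Gpbar1. SGLT1, the product of Slc5a1, recovers glucose from bile with sodium. Polycystin 1 and polycystin 2 sit on the primary cilium, where they take part in sensing of flow, and mutations of their genes cause polycystic kidney and liver disease.

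Total counts were 23423979 to 37351448 per library, and 3 counts, taken here as a working limit for a count of 0, equal 0.0739 to 0.127 CPM. CPM are counts scaled to a common library size after TMM normalisation. Axin2, the gene that drives the Cre, had 1.32, 1.74 and 5.96 CPM in untreated cells at passages 5, 6 and 10, and 44.4 to 124 CPM in Rspo1-negative and 75.7 to 155 CPM in Rspo1-positive cells. It was thus high in both sorted fractions of treated organoids. The summed level of 10 cholangiocyte markers, Krt7 and Krt19 among them, was 7869 to 10007 CPM in untreated, 7830 to 10108 in Rspo1-negative and 6634 to 6913 in Rspo1-positive cells, so it was lower in the last group without overlap. The members differed in direction: from untreated to Rspo1-positive cells the mean of Krt7 went from 2670 to 1804 CPM and that of Krt19 from 3098 to 1486, Epcam from 604 to 583, Sox9 from 56.4 to 140 and Spp1 from 999 to 1617. Of 6 measured endothelial markers Cdh5 had no count in any library and the sum was 0.532 to 1.29 CPM, and of 6 fibroblast markers Lum had none and the sum was 0.133 to 1.01 CPM. The 10 hepatocyte markers held Ttr at 149 to 534 CPM and Alb at 3.91 to 15.3, with the other 8 at 1.57 or less. The 6 immune markers summed to 53.6 to 76.7 CPM, mostly Csf1r at 37.2 to 56.1, with the pan-leukocyte gene Ptprc at 0 to 0.133. The 6 enterocyte or goblet cell markers summed to 297 to 380 CPM, mostly Vil1 at 288 to 374. Among them Cdx2 had 2.55 to 7.41 CPM, Muc2 0.234 to 3.31, and Sis had no count in any library. The part of these marker levels in the results that follow was not tested. In sorted bulk samples, fewer cells of a type and less RNA per cell cannot be told apart.

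The 250 bases before the RefSeq starts of Aqp1, Cftr and Slc10a2, the 3 genes with the largest called group differences, are shown because they differ sharply in base composition. They are RefSeq sequences of GRCm38.p6, 5′ to 3′ on the strand of the gene, and the Slc10a2 stretch stops at 186 bases so that it holds no transcribed base. They lie at chr6:18170437-18170686 (plus strand) for Cftr, chr6:55336049-55336298 (plus) for Aqp1 and chr8:5105352-5105537 (minus) for Slc10a2.
Cftr: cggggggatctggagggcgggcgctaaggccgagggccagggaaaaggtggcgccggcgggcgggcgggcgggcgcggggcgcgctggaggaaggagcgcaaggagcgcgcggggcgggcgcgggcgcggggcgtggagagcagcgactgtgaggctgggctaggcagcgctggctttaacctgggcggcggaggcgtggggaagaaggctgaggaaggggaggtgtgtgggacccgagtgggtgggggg
Aqp1: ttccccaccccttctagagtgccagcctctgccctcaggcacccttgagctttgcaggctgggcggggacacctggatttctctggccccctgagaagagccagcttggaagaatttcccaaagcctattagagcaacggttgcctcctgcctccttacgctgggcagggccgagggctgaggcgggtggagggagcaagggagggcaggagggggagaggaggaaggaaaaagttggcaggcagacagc
Slc10a2: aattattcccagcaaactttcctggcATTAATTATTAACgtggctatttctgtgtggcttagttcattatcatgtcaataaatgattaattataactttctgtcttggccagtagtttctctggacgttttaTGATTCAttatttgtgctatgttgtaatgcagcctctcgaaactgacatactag
Capitals mark motif matches. Of the Cftr stretch 76.4% of bases are G or C, of the Aqp1 stretch 62.0% and of the Slc10a2 stretch 34.4%, where the median over 32851 mouse promoters was 52.4%. Both strands were searched for the cores TCAAAG (TCF/LEF, the DNA-binding partners of beta-catenin), TGACG (of the cyclic AMP response element), GTTAAT (1 arm of the HNF1 site), AGAACA (1 arm of the glucocorticoid receptor site) and TGANTCA (AP-1). None of these letters occurred in the Cftr or Aqp1 stretch. Slc10a2 held a GTTAAT match on the opposite strand at base 34 and a TGANTCA match at base 133, which 4.96% and 5.09% of promoters hold in a window of the same length. The GTTAAT match is 1 arm of a match to the HNF1 consensus that starts at base 27 and overlaps it, and 0.0244% of promoters hold that consensus in such a window. The consensus lets the outermost base of the other arm vary, and that arm reads ATTAAT here, so the match is not an exact palindrome. The search for the consensus was added after the sequence had been seen. A match is a description of the letters and not a measured binding site.

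Levels of different genes were compared as FPKM, the authors' deposited values scaled by gene length and sequencing depth. In untreated cells Ano1 led with 59.4 ± 7.94 FPKM (SD, n = 3), followed by Slc4a2 with 39.7 ± 2.19 and Pkd2 with 22.5 ± 4.92. Aqp1 came next with 16.7 ± 14.8 FPKM, then Slc10a2 with 14.4 ± 1.45, Pkd1 with 3.48 ± 1.02, Slc5a1 with 1.06 ± 0.581 and Cftr with 0.689 ± 0.0522. The ranges of Pkd2 and Aqp1, of Aqp1 and Slc10a2 and of Slc5a1 and Cftr overlapped, so those neighbours were not separated. The 2 lowest, Sctr at 0.00972 FPKM and Gpbar1 at 0, lay under the limit set by 3 counts.

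With Rspo1 the order changed at the top and near the bottom. Aqp1 led in Rspo1-negative cells with 108 ± 62.8 FPKM, ahead of Slc4a2 with 49.4 ± 1.67 and Ano1 with 46.9 ± 6.31, whose ranges overlapped. It also led in Rspo1-positive cells with 63.8 ± 43.3 FPKM, there overlapping Ano1 with 48.4 ± 7.93. Cftr, the lowest of the tested genes in untreated and Rspo1-negative cells, stood above Slc5a1 in Rspo1-positive cells, with 2.08 ± 0.205 against 1.38 ± 0.324 FPKM and no overlap. Even there only 31.0% of tested genes had a lower mean FPKM than Cftr. Ano1 carried 69.8 to 105 times the FPKM of Cftr in untreated cells, 38.7 to 99.4 times in Rspo1-negative cells and 19.9 to 30.8 times in Rspo1-positive cells. The calcium-gated channel thus exceeded the cyclic AMP-gated one in every library, by less in the last group than in any library of the others. These FPKM carry no correction for the GC and length trends of the libraries described below. With an offset for both, the log2 fold change of Cftr in Rspo1-negative against untreated cells moved from 0.08 to 0.89. That of Ano1 moved from -0.38 to -0.36. Whether the ratios of the treated fractions stay apart with such an offset was not tested.

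In the main fit Cftr, the cyclic AMP-gated chloride channel (chromosome 6, 18170687 to 18322768, plus strand, GRCm38), was about 3 times as abundant in Rspo1-positive cells as in either other group. At passages 5, 6 and 10 it had 4.22, 4.88 and 4.37 CPM in untreated, 4.36, 6.58 and 3.35 CPM in Rspo1-negative and 12.1, 14.6 and 13.9 CPM in Rspo1-positive cells. The raw counts behind these were 79 to 164 in the 6 tdTomato-negative libraries and 433 to 497 in the positive ones. All 3 Rspo1-positive libraries were above all others, and the 2 negative groups overlapped. Against untreated cells the log2 fold change was 1.59 with a standard error (SE) of 0.25, a fold of 3.01, and a Benjamini-Hochberg adjusted p of 0.00414 over 17011 genes by edgeR's quasi-likelihood test. The call held in all 13 alternative analyses, with log2 fold changes of 1.53 to 1.67, and the gain within passages 5, 6 and 10 was 1.50, 1.57 and 1.65. Against Rspo1-negative cells it was 1.51 (SE 0.25, adjusted p = 0.00319) in the main fit, and 0.70 with an offset for GC content and length.

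The second Cftr comparison depended on whether an offset for GC content and length was used. Fold changes of all genes followed the GC content of their transcripts in the comparisons that involve Rspo1-negative libraries: the rank correlation across 17001 genes was 0.496 for Rspo1-negative against untreated, -0.504 for Rspo1-positive against Rspo1-negative, and -0.0134 for Rspo1-positive against untreated. With transcript length the rank correlations were -0.307, 0.311 and 0.00614 in the same order. Genes share their libraries here, so these are descriptions of the libraries. The longest Cftr transcript has 41.2% GC, and 9.54% of tested genes have less. It has 6410 bases, and 90.5% of tested genes are shorter. With an offset for GC and length, this Cftr difference was 0.70 (adjusted p = 0.0707 by edgeR), and 0.71 with passage as a block as well (adjusted p = 0.00946). For Rspo1-negative against untreated cells the log2 fold change was 0.08 (SE 0.25, adjusted p = 0.838) without the offset and 0.89 (adjusted p = 0.0341) with it, and without the Rspo1-negative library of passage 6 it was -0.18. Whether Cftr differed between the 2 negative groups therefore turned on this setting, while the difference between Rspo1-positive and untreated cells did not. In 1.66% of its exon bases Cftr overlaps the antisense gene Gm15592, and the strand setting of the counts is not given in the sources used here.

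Ano1, which encodes the calcium-gated chloride channel anoctamin 1 (chromosome 7, 144588549 to 144751974, minus strand), was abundant in every library and passed the main test in no group comparison. It had 316, 244 and 270 CPM in untreated, 219, 182 and 238 CPM in Rspo1-negative and 266, 208 and 201 CPM in Rspo1-positive cells at passages 5, 6 and 10. The Rspo1-negative libraries all lay below the untreated ones, while Rspo1-positive cells overlapped both. For Rspo1-negative against untreated cells Ano1 had a log2 fold change of -0.38 (SE 0.17, edgeR adjusted p = 0.128), and with passage as a block it was -0.37 (adjusted p = 0.0482). Against untreated cells the Rspo1-positive value was -0.30 (SE 0.17, adjusted p = 0.405).

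Slc4a2, the chloride-bicarbonate exchanger (chromosome 5, 24423837 to 24440950, plus strand), varied least of the 8 tested genes, with 1.48 times between its highest and lowest library. Its levels were 166, 183 and 166 CPM in untreated, 201, 219 and 206 CPM in Rspo1-negative and 156, 166 and 148 CPM in Rspo1-positive cells. The 3 groups did not overlap. Rspo1-positive cells were lower than Rspo1-negative cells by 0.37, 0.40 and 0.48 log2 units within the 3 passages, and the fitted log2 fold change was -0.42 (SE 0.12, edgeR adjusted p = 0.0260). Leaving out any 1 of the 6 libraries ended that call, with log2 fold changes of -0.47 to -0.38 and adjusted p of 0.0514 to 0.102, with the GC and length offset it was -0.28 (adjusted p = 0.177), and with no filter -0.45 (adjusted p = 0.0679). Rspo1-negative against untreated was 0.28 (SE 0.12, adjusted p = 0.107), where DESeq2 gave 0.31 (adjusted p = 0.0316) and upper-quartile scaling 0.36 (adjusted p = 0.0473), and Rspo1-positive against untreated -0.14 (SE 0.12, adjusted p = 0.637). Of its exon bases 13.7% are shared with other genes, most with Fastk on the opposite strand. How reads from there were counted is not given in the sources used here.

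Aqp1, the water channel (chromosome 6, 55336432 to 55348555, plus strand), had the widest range of the tested genes, 28.6 times between its lowest and highest library, and was higher with Rspo1 at every passage. At passages 5, 6 and 10 it had 16.6, 27.7 and 89.9 CPM in untreated, 180, 189 and 476 CPM in Rspo1-negative and 118, 88.0 and 307 CPM in Rspo1-positive cells. The Rspo1-negative libraries lay above all untreated ones, whereas the Rspo1-positive library of passage 6 fell just under the untreated library of passage 10. Rspo1-negative against untreated gave a log2 fold change of 2.65 (SE 0.68, edgeR adjusted p = 0.0205), a fold of 6.29. The adjusted p was 0.0575 without the untreated library of passage 5, 0.0555 without that of passage 6, 0.0679 without the Rspo1-negative library of passage 10 and 0.0527 with the GC and length offset, with log2 fold changes of 2.26, 2.41, 2.09 and 2.37. With passage as a block it was 2.84 (adjusted p = 5.54e-05).

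For Rspo1-positive against untreated cells the Aqp1 log2 fold change was 1.93 (SE 0.66) and did not pass the main test (edgeR adjusted p = 0.146). Within passages 5, 6 and 10 the difference was 2.83, 1.67 and 1.77, and with passage as a block the value was 2.07 (adjusted p = 7.4e-05). With no filter it was 1.96 (adjusted p = 2.7e-05). Without the untreated library of passage 10 the value was 2.95 (adjusted p = 0.0251), and over the 6 such fits it ranged from 1.21 to 2.95. Rspo1-positive cells had less Aqp1 than Rspo1-negative cells at each passage, by 0.61, 1.10 and 0.63 log2 units. That comparison gave -0.72 (SE 0.64, adjusted p = 0.446) in the main fit, -0.77 (adjusted p = 0.0123) with the block and -0.49 (adjusted p = 0.109) with the block and the offset. The authors' deposited table lists -0.80 with an adjusted p of 2.14e-08 for it, and 2.09 with 6.66e-22 for Rspo1-positive against untreated Aqp1.

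**Figure D1:**
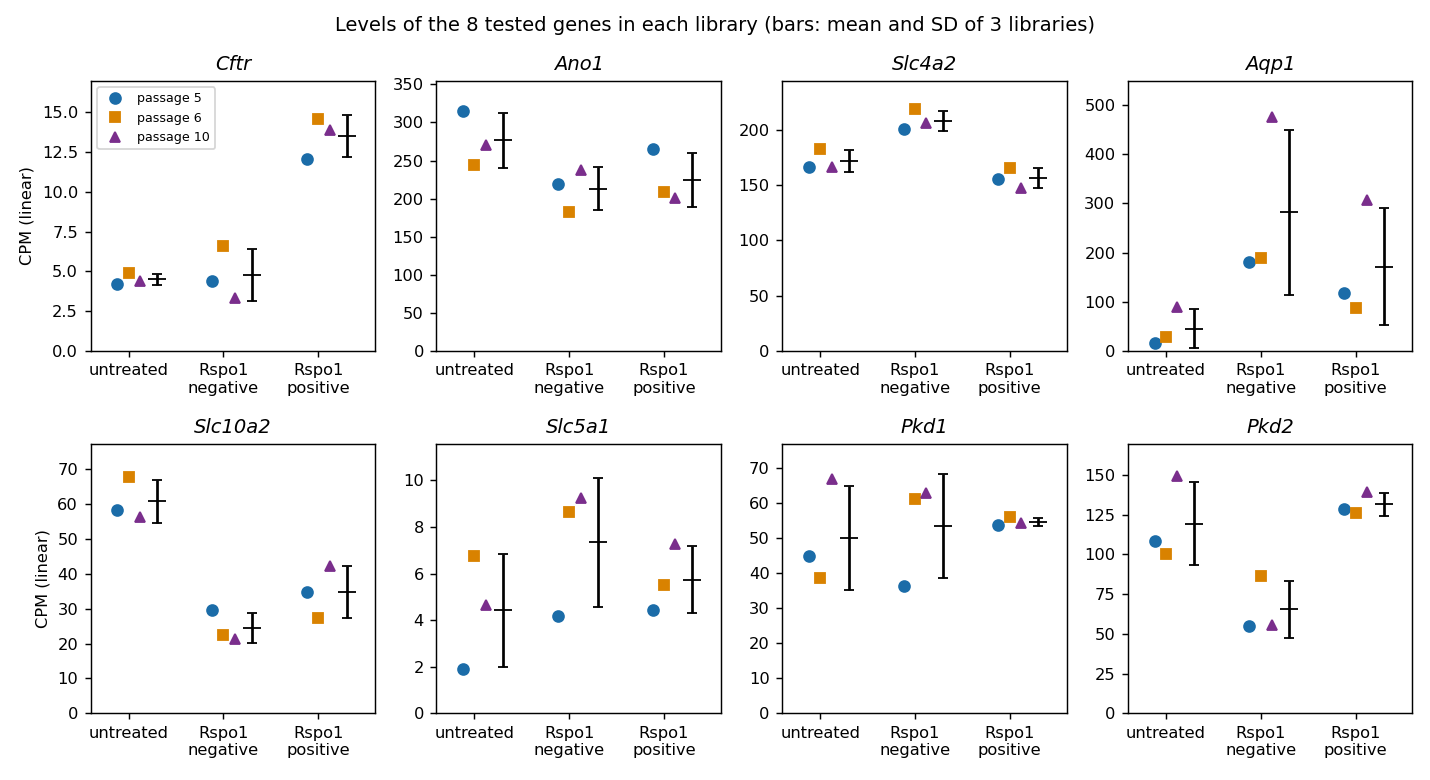
Each panel shows the CPM (linear axis from 0) of 1 gene in each of the 9 libraries, by group, with the symbol giving the passage and the bars the mean and SD of 3 libraries. Cftr stands at 12.1 to 14.6 CPM in the Rspo1-positive group and at 6.58 or less elsewhere, and the passage 10 library is the highest for Aqp1 in every group.

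Slc10a2, the sodium-coupled bile acid carrier (chromosome 8, 5083219 to 5105351, minus strand), was lower in both fractions of Rspo1-treated organoids. It had 58.3, 67.8 and 56.1 CPM in untreated, 29.5, 22.5 and 21.3 CPM in Rspo1-negative and 34.7, 27.3 and 42.2 CPM in Rspo1-positive cells at passages 5, 6 and 10. Every untreated library was above every treated one, and the 2 treated fractions overlapped. Against untreated cells Rspo1-positive cells had a log2 fold change of -0.80 (SE 0.18, edgeR adjusted p = 0.0305), a level of 0.572 of the untreated mean. It was lower within each passage, by 0.75, 1.31 and 0.41 log2 units, but the adjusted p was 0.0752 and 0.0939 without the untreated library of passage 5 or 6, and 0.0916 and 0.142 without the Rspo1-positive library of passage 5 or 6. The values in those 4 fits were -0.83, -0.72, -0.80 and -0.66.

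In Rspo1-negative cells Slc10a2 was 0.403 of the untreated level, a log2 fold change of -1.31 (SE 0.19, edgeR adjusted p = 0.00166). Its transcript has 35.7% GC, the lowest of the 8 tested genes, and 0.594% of tested genes have less. With the offset the change was -0.49 (adjusted p = 0.0521), and with offset and block -0.49 (adjusted p = 0.0172). Between the treated fractions, Rspo1-positive cells were 0.51 higher (SE 0.18, adjusted p = 0.0686), or 0.51 with passage as a block (adjusted p = 0.0413), and the authors' deposited table lists 0.48 with an adjusted p of 0.0154 for Slc10a2. The offset turned this difference to -0.29 (adjusted p = 0.208), so its direction was not settled, while the fall against untreated cells kept its direction in each of the 13 alternatives of both comparisons.

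Gpbar1, the membrane bile acid receptor (chromosome 1, 74278550 to 74279624, plus strand), had a count of 0 in all 9 libraries, for which the working limit of 3 counts equals 0.0739 to 0.127 CPM per library. Sctr, the secretin receptor at the head of the cyclic AMP route (chromosome 1, 120006894 to 120063536, plus strand), had 6 counts in all, 2 in each group, and 4 of the 9 libraries had none. Both stayed at or under 3 counts in each library, so no fold was formed, and a difference between groups was not detectable at this depth. These limits cover counting error only.

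Slc5a1, the sodium-glucose carrier SGLT1 (chromosome 5, 33104219 to 33162870, plus strand), was weakly expressed and differed more between passages than between groups. It had 1.91, 6.76 and 4.63 CPM in untreated, 4.18, 8.64 and 9.23 CPM in Rspo1-negative and 4.46, 5.50 and 7.28 CPM in Rspo1-positive cells, from 62 to 260 raw counts. The groups overlapped in each comparison. Rspo1-negative cells were 0.73 higher than untreated ones (SE 0.43, edgeR adjusted p = 0.257), and higher within each passage by 1.11, 0.35 and 0.98 log2 units. Blocking on passage gave 0.78 (adjusted p = 0.0312), and the authors' deposited table lists Slc5a1 at 0.83 with an adjusted p of 0.0209. For Rspo1-positive against untreated cells the value was 0.37 (SE 0.43, adjusted p = 0.754), higher at passages 5 and 10 and lower at passage 6.

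Pkd2, the channel-forming polycystin (chromosome 5, 104459450 to 104505819, plus strand), was lower in Rspo1-negative cells than in both other groups. It had 109, 99.9 and 149 CPM in untreated, 54.7, 86.2 and 55.5 CPM in Rspo1-negative and 128, 126 and 139 CPM in Rspo1-positive cells. No Rspo1-negative library reached the lowest library of either other group. Rspo1-positive cells had 2.01 times the level of Rspo1-negative cells, a log2 fold change of 1.01 (SE 0.20, edgeR adjusted p = 0.00757) that passed the test in all 13 alternatives at 0.80 to 1.24. Rspo1-negative against untreated was -0.87 (SE 0.20, adjusted p = 0.0144). That call was lost without the Rspo1-negative library of passage 5 (-0.75, adjusted p = 0.0575) or of passage 10 (-0.72, adjusted p = 0.0633), and it was -0.68 with the offset, where it passed. Rspo1-positive and untreated cells overlapped, at 0.14 (SE 0.20, adjusted p = 0.817).

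Pkd1, the large receptor-like partner of Pkd2 (chromosome 17, 24549834 to 24596508, plus strand), passed the main test in no comparison. It had 44.8, 38.8 and 66.8 CPM in untreated, 36.3, 61.3 and 62.8 CPM in Rspo1-negative and 53.9, 56.0 and 54.3 CPM in Rspo1-positive cells. The groups overlapped throughout, and the Rspo1-positive libraries were the closest to one another. Log2 fold changes were 0.13 (SE 0.23) for Rspo1-positive against untreated, 0.03 (SE 0.23) against Rspo1-negative and 0.09 (SE 0.23) for Rspo1-negative against untreated, with edgeR adjusted p of 0.869, 0.933 and 0.817. With offset and block together the last was 0.46 (adjusted p = 0.0178). Per length, Pkd2 had 6.05 to 6.99 times the FPKM of Pkd1 in untreated, 6.12 to 6.97 times in Rspo1-positive and 2.40 to 4.09 times in Rspo1-negative cells. Of its exon bases 3.98% are shared, most with Tsc2 on the opposite strand.

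Counted over the 8 tested genes, Rspo1-positive against untreated cells gave 2 calls, Cftr higher and Slc10a2 lower, where 5.21% of all tested genes were called. Groups did not overlap for 3 genes, Slc4a2 being the third, against 23.2% of all genes. Rspo1-positive against Rspo1-negative gave Cftr and Pkd2 higher and Slc4a2 lower, 3 genes, where 24.3% of all genes were called, and the groups of the same 3 did not overlap, against 45.2% of all. Rspo1-negative against untreated gave Aqp1 higher and Slc10a2 and Pkd2 lower, 3 genes, where 21.9% of all genes were called. There the groups did not overlap for 5 genes, those and Ano1 and Slc4a2, against 36.3%. The comparisons share libraries and are not independent. Median log2 fold changes over the 8 were 0.13, 0.06 and 0.09, beside -0.01, 0.03 and -0.02 over all genes, and the calls went in both directions in each comparison. With the GC and length offset the medians over the 8 were 0.14, -0.28 and 0.30, each beside 0.00 over all genes. With passage as a block 3, 5 and 5 genes were called, where 13.2%, 38.9% and 35.5% of all genes were, with the offset 2, 1 and 2, where 6.1%, 8.24% and 8.56% were, and with both 3, 2 and 7, where 16.2%, 23.7% and 22.4% were.

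**Figure D2:**
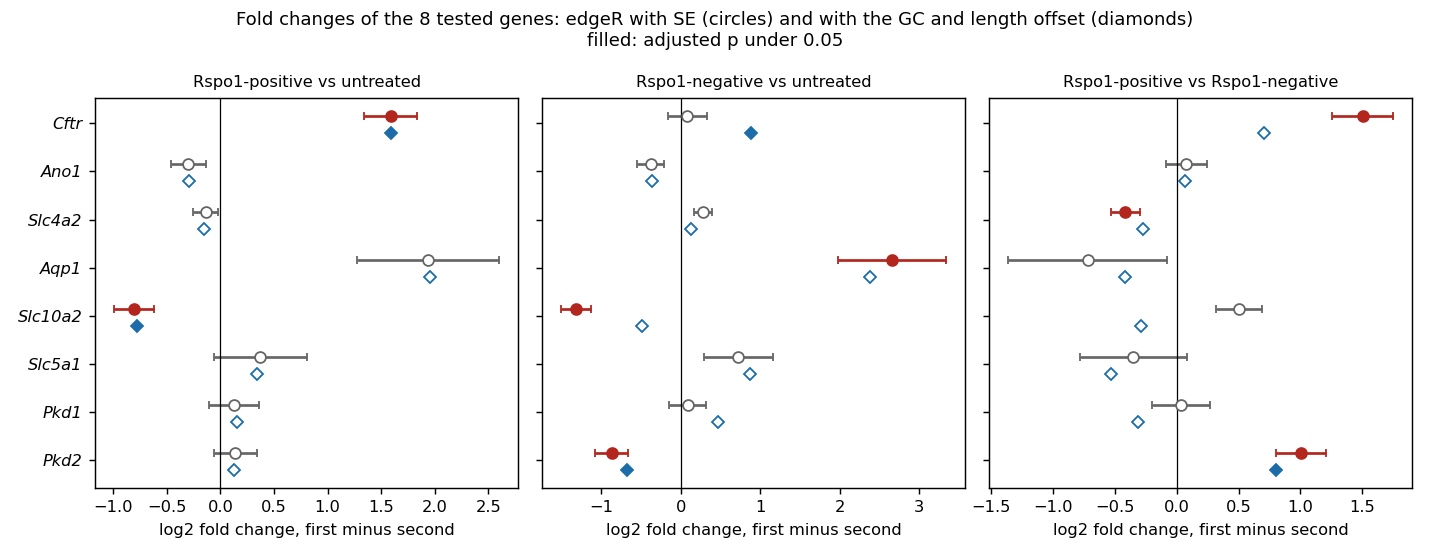
Log2 fold changes of the 8 tested genes in the 3 group comparisons, with circles and SE bars for the edgeR fit, diamonds for the fit with the GC and length offset, and filled symbols for an adjusted p under 0.05. Circles and diamonds nearly coincide for Rspo1-positive against untreated, while in the comparisons with Rspo1-negative libraries Cftr moves from 1.51 to 0.70 and from 0.08 to 0.89, and Slc10a2 from -1.31 to -0.49 and from 0.51 to -0.29.

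Aqp1 and Slc5a1 were higher at passage 10 than at passage 5. Tested across the 3 groups with group as a term, passage 10 against passage 5 called these 2 of the 8 genes, both higher, where 9.07% of all genes were called and 4.57% were called higher. Each passage was a single time point of the line with a single library of each group. The p-values of passage comparisons therefore do not measure the spread between cultures of the same passage. The libraries of the passages did not overlap for 2, Slc5a1 and Pkd1, against 16.7% of all. Aqp1 rose by a log2 fold change of 1.70 (SE 0.21, edgeR adjusted p = 0.00126), with 2.43, 1.40 and 1.38 in untreated, Rspo1-negative and Rspo1-positive cells, and the call held in all 10 alternatives at 1.41 to 1.94. Axin2 was higher at passage 10 as well, by 1.48 (SE 0.24, adjusted p = 0.00424), and its part in the Aqp1 result was not tested. Passage 6 did not separate from passage 5 for Aqp1, at 0.09 (SE 0.20, adjusted p = 0.886).

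Slc5a1 was 1.0 log2 units higher at passage 10 than at passage 5 (SE 0.25, edgeR adjusted p = 0.0308) and 1.04 higher at passage 6 (SE 0.25, adjusted p = 0.0560). All 6 libraries of the later passages reached more CPM than any library of passage 5. The passage 10 call held in 1 of 6 fits without 1 library, where values were 0.79 to 1.30 and adjusted p 0.0333 to 0.167. Those that lost it were the fits without the untreated library of passage 5 (0.79) or 10 (1.09), without the Rspo1-negative library of passage 5 (0.96) or 10 (0.89), and without the Rspo1-positive library of passage 10 (0.98). Pkd1 at passage 10 was at 0.46 (SE 0.19, adjusted p = 0.145), or 0.42 with no filter (adjusted p = 0.0376). For passage 6 against passage 5 edgeR called 0 of the 8, where 2.49% of all genes were called, and Slc5a1 was the only 1 without overlap, against 8.83%. DESeq2, the offset and the fit with no filter each called 1, Slc5a1. They called 5.2%, 3.54% and 3.83% of the 16351, 17011 and 31128 genes to which they gave an adjusted p. By edgeR 2 had an unadjusted p under 0.05, Ano1 (-0.33, unadjusted p = 0.0287) and Slc5a1, where 15.4% of all genes did.

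**Figure D3:**
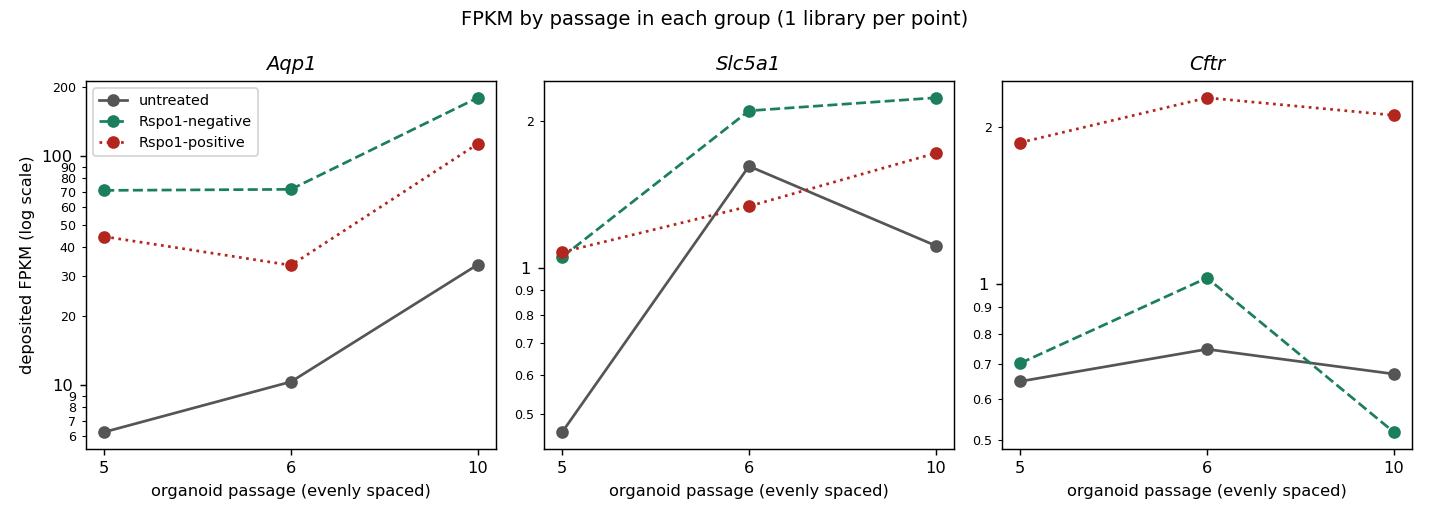
Deposited FPKM on log axes of Aqp1, Slc5a1 and Cftr at passages 5, 6 and 10, drawn evenly spaced, with 1 line per group and 1 library per point. Aqp1 is highest at passage 10 in each group, Slc5a1 is lowest at passage 5 in each group, and the Cftr line of Rspo1-positive cells stays above the others.

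The 9 libraries form a layout of 3 groups by 3 passages, which splits the variation of each gene's log2 CPM. Group took 90.1% of it for Cftr, 88.6% for Slc4a2, 88.0% for Slc10a2 and 79.8% for Pkd2. It took 68.3% for Aqp1, where passage took another 29.1%. For Ano1 group took 49.5% and passage 34.0%, and for Slc5a1 passage took the larger share, 57.3%. For Pkd1 passage took 41.2% and group 5.30%, with 53.5% left over. The medians over all tested genes were 52.2% for group, 21.5% for passage and 16.7% for the rest.

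Genes with the most similar pattern were listed by Pearson correlation of log2 CPM over the 9 libraries among 11661 genes, as a description only, since libraries share group and passage. The pair nearest to Cftr was Ncapg2 (0.98) and Kif20b (0.98), and that nearest to Aqp1 was Sox12 (0.98) and Pgc (0.98). Nearest to Slc10a2 were Vapa (0.98) and Scamp1 (0.98), and to Pkd2 Med1 (0.99) and Kmt2e (0.99). For Slc4a2 they were Tbc1d17 (0.98) and Klhl36 (0.98), for Ano1 Fblim1 (0.97) and Map4 (0.92), for Pkd1 Ppip5k1 (0.98) and Casc3 (0.95), and for Slc5a1 Cdc42ep1 (0.97) and Scara5 (0.97).

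The wider pathways were examined as 4 lists, whose counts are to be read beside those over all genes. Comparing Rspo1-positive with untreated cells, the treated fractions with each other, and Rspo1-negative with untreated cells, edgeR called 5.21%, 24.3% and 21.9% of all tested genes, and 13.2%, 38.9% and 35.5% with passage as a block. With the GC and length offset it called 6.1%, 8.24% and 8.56%. DESeq2 called 8.85% and 32.8% in the first and second of these comparisons, and 17.5% and 37.7% had an unadjusted edgeR p under 0.05. The DESeq2 shares are of the 17010 and 15690 genes to which it gave an adjusted p. Those given for the lists are of all tested list genes, so the bases differ. The medians over all genes were -0.01, 0.03 and -0.02.

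The other genes of ductal secretion form a list of 64, of which 53 were tested. It holds the cyclic AMP machinery, bicarbonate and sodium carriers, potassium channels, aquaporins and purine receptors. In Rspo1-positive against untreated cells 2 rose and 3 fell (9.43% of the list), with a median of -0.01, and with the block 4 rose and 8 fell (22.6%). Slc26a9, an anion channel and exchanger, rose by 2.20 (SE 0.24, edgeR adjusted p = 0.00117), from 18.5 ± 5.72 to 85.1 ± 12.4 CPM (SD, n = 3), and was called in all 13 alternatives. The other that rose, the potassium channel Kcnq1, was at 0.68 (SE 0.17, edgeR adjusted p = 0.0467). The chloride channel Clcn2 was at -1.04 (SE 0.25, adjusted p = 0.0405), the sodium pump subunit Atp1b1 at -0.77 (SE 0.16, adjusted p = 0.0187) and the membrane linker Ezr at -0.72 (SE 0.18, adjusted p = 0.0442). Those 3 kept their call in 3, 3 and 1 of 6 fits without 1 library and lost it when only the 6 libraries compared were fitted, and with the GC and length offset Clcn2 was -1.06 (adjusted p = 0.0637).

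In Rspo1-negative against untreated cells 4 of the 53 secretion genes rose and 7 fell (20.8% of the list), or 10 and 11 with the block (39.6%) and 4 and 1 with the GC and length offset. Slc26a9 rose here as well, by 1.27 (SE 0.24, edgeR adjusted p = 0.00556), and so did Kcnq1, a potassium channel of epithelia, by 1.33 (SE 0.17, adjusted p = 0.00135). The sodium-bicarbonate carrier Slc4a7 was at -1.22 (SE 0.18, adjusted p = 0.00201) and the kinase Wnk1, a regulator of ion carriers, at -0.96 (SE 0.18, adjusted p = 0.00543). With the offset these 2 were -0.30 and -0.39 and not called, while Slc26a9 and Kcnq1 were called in all 13 alternatives. Rspo1-positive against Rspo1-negative cells gave 8 higher and 9 lower (32.1%), or 10 and 14 with the block (45.3%) and 1 and 2 with the offset. Slc4a7 (1.04), Slc12a2, the basolateral chloride loader (1.04), Wnk1 (0.97) and the water channel Aqp5 (-1.07) had edgeR adjusted p of 0.00437, 0.0198, 0.00543 and 0.0446. With the offset their values were 0.10, 0.41, 0.38 and -0.61, and none was called. Without the offset, leaving out 1 library at a time kept these calls in 6, 2, 6 and 1 of 6 fits.

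Of 29 genes of bile acid sensing and transport, 27 were in the files and 17 were tested. In Rspo1-positive against untreated cells 0 rose and 3 fell by edgeR (17.6% of the list), or 2 and 6 with the block (47.1%). DESeq2 called 1 higher and 6 lower (41.2%), 2 and 7 had an unadjusted edgeR p under 0.05 (52.9%), and the list median was -0.38 beside -0.01 over all genes. Nr1h4, the nuclear bile acid receptor FXR, was at 11.4 ± 1.54 against 23.8 ± 1.85 CPM, a log2 fold change of -1.05 (SE 0.16, edgeR adjusted p = 0.00362) that was called in all 13 alternatives. The basolateral exporter Abcc3 was at -1.16 (SE 0.23, adjusted p = 0.0158) and Osgin1 at -0.87 (SE 0.22, adjusted p = 0.0468), called in 4 and 1 of 6 fits without 1 library. In Rspo1-negative cells 2 rose and 4 fell against untreated cells (35.3%), or 4 and 6 with the block (58.8%), with a median of -0.43 beside -0.02 over all genes. Nr1h4 was again lower, at -0.86 (SE 0.16, adjusted p = 0.00482), and called in all 13 alternatives. The receptor Fgfr4 was at 1.13 (adjusted p = 0.0137), the exporter Abcb1a at -1.79 (adjusted p = 0.0167) and the carrier Slco3a1 at -0.78 (adjusted p = 0.0114), called in 5, 4 and 5 of 6 fits without 1 library. With the offset Abcb1a was -1.39 (adjusted p = 0.0649). Rspo1-positive against Rspo1-negative cells gave 0 higher and 2 lower (11.8%) by edgeR, by DESeq2 and at an unadjusted edgeR p under 0.05, and 0 and 3 with the block (17.6%). The edgeR calls were Abcc3 (-0.75, adjusted p = 0.0371) and the nuclear receptor Nr1i3 (-0.54, adjusted p = 0.0196), kept in 1 and 2 of 6 fits without 1 library and at -0.74 (adjusted p = 0.0720) and -0.35 (adjusted p = 0.116) with the offset.

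Of a list of 31 genes, those of polycystic disease and partners of the polycystins together with the kinase gene Pkdcc, 29 were tested. In Rspo1-positive against untreated cells edgeR called 0 and DESeq2 1 (3.45% of the list), and 4 had an unadjusted edgeR p under 0.05 (13.8%), 2 in each direction. The list median was -0.08, and with passage as a block 2 rose and 1 fell (10.3%). In Rspo1-negative against untreated cells 2 rose and 4 fell (20.7%), or 5 and 9 with the block (48.3%). Kif3a, a motor of cilium assembly, was at -0.83 (SE 0.13, edgeR adjusted p = 0.00261), the transcription factor Glis3 at -0.90 (SE 0.19, adjusted p = 0.00955) and Pkdcc at 1.07 (SE 0.23, adjusted p = 0.00929), all called in 13 of 13 alternatives. Pkdcc, 1 of the 2 that rose, resembles the polycystin genes in symbol only and is not a known partner of the polycystins. Sec63, a component of protein translocation into the endoplasmic reticulum, was at -1.05 (SE 0.16, adjusted p = 0.00193), and at -0.42 (adjusted p = 0.0690) with the offset. Rspo1-positive against Rspo1-negative cells gave 5 higher and 1 lower (20.7%), or 7 and 5 with the block (41.4%) and 1 and 2 with the offset. Kif3a was 0.82 higher (SE 0.13, adjusted p = 0.00302) in all 13 alternatives, and Sec63 (1.04), Pkd2l2 (0.91) and the cilium transport gene Ift88 (0.82) had adjusted p of 0.00241, 0.0352 and 0.0147. The offset ended these 3 calls, and they held in 6, 1 and 3 of 6 fits without 1 library.

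Of 24 sugar and organic solute carriers, 23 were in the files and 17 were tested. Rspo1-positive against untreated cells gave 1 higher and 2 lower (17.6% of the list), or 2 and 4 with the block (35.3%). The nucleoside carrier Slc29a1 was at 50.1 ± 4.11 against 15.1 ± 1.67 CPM, a log2 fold change of 1.73 (SE 0.15, edgeR adjusted p = 0.000502), and the inositol carrier Slc5a3 at 36.0 ± 5.34 against 87.5 ± 14.6 CPM, -1.28 (SE 0.16, adjusted p = 0.00169). Both were called in all 13 alternatives. The taurine carrier Slc6a6 was at -0.89 (SE 0.21, adjusted p = 0.0353), a call lost in each of 6 fits without 1 library. In Rspo1-negative against untreated cells 2 rose and 2 fell (23.5%), or 2 and 3 with the block (29.4%), with Slc29a1 at 1.49 (adjusted p = 0.000993), the vitamin carrier Slc5a6 at 0.48 (adjusted p = 0.0483), Slc5a3 at -1.57 (adjusted p = 0.000993) and Slc6a6 at -0.78 (adjusted p = 0.0250). With the offset Slc5a3 was -0.46 (adjusted p = 0.102), Slc5a6 0.30 (adjusted p = 0.290) and Slc6a6 -0.58 (adjusted p = 0.109), and Slc5a6 and Slc6a6 kept their calls in 1 and 3 of 6 fits without 1 library. Rspo1-positive against Rspo1-negative cells gave 0 higher and 2 lower (11.8%) by edgeR and by DESeq2, and 0 and 3 (17.6%) at an unadjusted edgeR p under 0.05 or with the block. The edgeR calls were the glucose carrier Slc2a1 (-0.83, adjusted p = 0.0286) and Slc5a6 (-0.68, adjusted p = 0.0124), kept in 3 and 5 of 6 fits without 1 library and at -0.65 (adjusted p = 0.130) and -0.50 (adjusted p = 0.0881) with the offset.

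**Figure D4:**
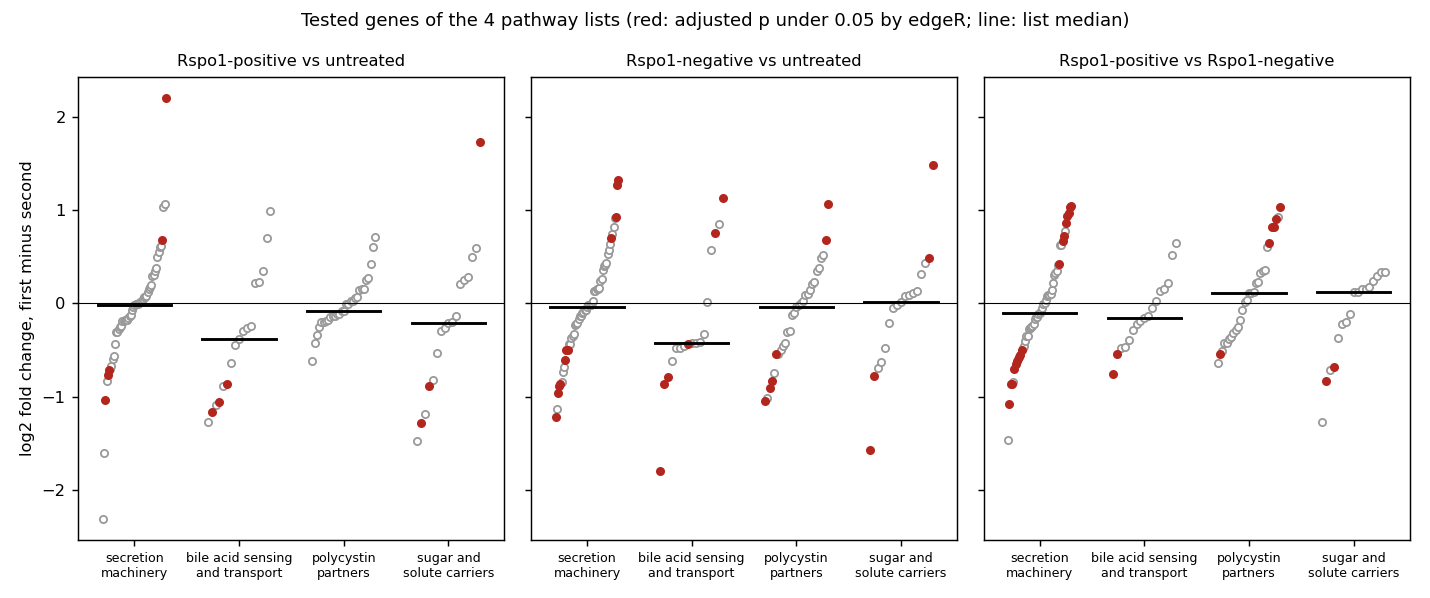
Log2 fold changes of the tested genes of the 4 lists in the 3 group comparisons, sorted within each list, red where the edgeR adjusted p is under 0.05, with a line at the list median. Red points lie on both sides of 0 for the secretion list in each comparison, and the bile acid list has its median at -0.38 and -0.43 in the comparisons with untreated cells.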

How the data were processed

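Libraries took 100 ng of total RNA each and gave 75 bp single-end reads, per the labels' protocols. The submitters' processing notes name Trimmomatic 0.35, FastQC 0.11.2, STAR 2.5.1b, featureCounts and DESeq2 and the build GRCm38; the annotation and strand setting are not given in the sources used here. Per the file headers, each library has raw counts and FPKM per gene; the deposited FPKM values scale with a size factor by median of ratios and were used for levels only. The authors' deposited comparison tables hold log2 fold changes with standard errors, a score (the fold change over its error), p-values and a mean normalized signal, and their design formula is not given in the sources used here.

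Raw counts were analysed with edgeR 4.0.16 in R 4.3.3 (filterByExpr with minimum count 10 and minimum total 15, TMM, quasi-likelihood F-test, Benjamini-Hochberg over 17011 genes, threshold 0.05), all 9 libraries in 1 fit by group, or by group and passage for the passage comparisons. A standard error is the log2 fold change divided by the square root of F. Within-passage differences are of log2 CPM with a prior count of 2. Gene positions, exon overlaps, GC and transcript length come from GENCODE annotation of GRCm38. The fits were tested on simulated counts drawn without a passage effect, so that test does not cover libraries paired by passage.

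Replicates 1, 2 and 3 are passages 5, 6 and 10, per the labels. Deviations from group means correlated at 0.123 to 0.573 in the 9 same-passage pairs and -0.476 to 0.0826 in the 18 others, so passage pairs the libraries, and blocked values or counts are given where they change a call.

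Alternatives were DESeq2 1.42.0, upper-quartile scaling, no filter, only the 6 libraries compared, the passage block, an offset for GC and length (splines with 4 degrees of freedom, values held fixed beyond the percentiles 2 and 98), block with offset, and leaving out each library. Named are all 10 genes, Axin2, the 2 genes most like each tested one with mean log2 CPM above 2, and per list and comparison up to 4 called genes with the largest change and mean log2 CPM above 0. The genes, lists and markers were chosen with earlier results of these data known.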

Additional observations from a re-analysis of the deposited data

How the results depend on the processing

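Over the 8 genes and 5 comparisons, 397 alternative values kept their side of the threshold and their direction, 26 lost a call, 21 gained one and 28 changed sign. The calls of Cftr in Rspo1-positive against untreated, of Pkd2 in Rspo1-positive against Rspo1-negative and of Aqp1 at passage 10 against 5 held in every alternative run. The passage block moved the number of these genes called from 3 to 5 in Rspo1-positive against Rspo1-negative and from 3 to 5 in Rspo1-negative against untreated. The GC and length offset gave 1 in the former and, for passage 6 against 5, 1 in place of 0, as did DESeq2 and no filter. Block with offset gave 7 in Rspo1-negative against untreated. Leaving out 1 library gave 1 to 3 for Rspo1-positive against untreated, 2 to 3 against Rspo1-negative, 1 to 3 for Rspo1-negative against untreated, 1 to 2 for passage 10 and 0 to 1 for passage 6.

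Over all genes, Rspo1-positive against untreated gave 886 calls, and 1506 by DESeq2, 1446 with no filter, 2247 with the passage block, 2748 with block and offset and 390 to 899 without 1 library. Rspo1-positive against Rspo1-negative gave 4141, and 6624 with the block, 1401 with the offset and 2061 to 4068 without 1 library. Rspo1-negative against untreated gave 3724, and 2299 from its own 6 libraries, 6039 with the block, 1456 with the offset and 1800 to 3772 without 1 library. Passage 10 against 5 gave 1543, 2784 with no filter and 405 to 702 without 1 library; passage 6 against 5 gave 423, 851 by DESeq2, 1193 with no filter and 105 to 846 without 1 library. The cause was not tested, except that fits without 1 library hold fewer samples.

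Sign changes fell on values that did not pass the main test. With the offset, Slc10a2 was -0.29 in Rspo1-positive against Rspo1-negative (-0.29 with the block too), Pkd1 there -0.31 (-0.29 with the block), and at passage 10 against 5 Cftr was 0.082 and Slc10a2 0.10. Upper-quartile scaling gave Pkd1 -0.012 in Rspo1-positive against Rspo1-negative. Without 1 library, Pkd1 ranged from -0.028 to 0.38 in Rspo1-positive against untreated, from -0.18 to 0.14 against Rspo1-negative, from -0.060 to 0.35 in Rspo1-negative against untreated and from -0.0094 to 0.42 at passage 6. Ano1 ranged from -0.061 to 0.15 in Rspo1-positive against Rspo1-negative, and Cftr from -0.18 to 0.31 in Rspo1-negative against untreated. At passage 10, Cftr ranged from -0.17 to 0.15, Slc4a2 from -0.074 to 0.011, Slc10a2 from -0.31 to 0.082 and Pkd2 from -0.0001 to 0.37. At passage 6, Aqp1 ranged from -0.20 to 0.32, Slc10a2 from -0.37 to 0.0087 and Pkd2 from -0.12 to 0.39. Counting error matters most for Cftr and Slc5a1, with at most 497 counts per library, and for Sctr and Gpbar1, where it leaves only upper limits.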
